A study of Taeniopygia guttata with 2 samples.

Results

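The cells described here are the embryonic erythrocytes, the red blood cells, that came with dissociated zebra finch (Taeniopygia guttata) gonads at Hamburger and Hamilton (HH) stage 28. Members were chosen by their globin readout: a barcode with at least 2000 UMIs (unique molecular identifiers, 1 per captured RNA molecule) and 200 genes was taken as an erythrocyte where HBAD and HBAA together held at least 10% of its UMIs. By this rule 480 of 17054 deep barcodes were erythrocytes, and the other 16574 deep barcodes are called the rest. The female library held 240 of 7593 deep barcodes (3.16%, exact binomial 95% interval 2.78 to 3.58%) and the male library 240 of 9461 (2.54%, 2.23 to 2.87%). Each library was made from the pooled gonads of 7 embryos of 1 sex, with no treatment named in the labels, so there was 1 library per sex and no replicate. No p-value is therefore given, and all intervals cover counting error only. No perfusion or sorting of the gonads is described in the sources used here, and blood within the tissue and blood carried over in dissection cannot be told apart.

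Bird erythrocytes keep their nucleus throughout life. Circulating red cells of an early bird embryo belong at first to a primitive lineage from the yolk sac, which is replaced by a definitive lineage as development goes on, and embryonic red cells still divide in the blood. In chicken the alpha-type globin genes stand in a row, with an embryonic gene followed by the genes for alpha-D and alpha-A globin, and the embryonic one is made mainly by the primitive lineage. HBAP, HBAD and HBAA are likewise direct neighbours in that order in the RefSeq annotation of the finch assembly bTaeGut7.mat, which lists HBZ as a synonym of HBAP. No DNA or protein sequence was read for these genes.

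The threshold fell in an empty stretch of the globin range. The share of HBAD and HBAA among the members had a median of 41.4% (quartiles 38.1 and 44.1%) in the female library and 42.3% (40.1 and 44.5%) in the male library. The lowest members stood at 21.5% in the female library and 12.1% in the male one, and the highest barcodes left outside at 8.07% and 2.01%. Among the rest, 4 female and 5 male barcodes passed 1%. These values chose the members and are given as a description only. Erythrocytes were deep and simple libraries, with a median of 18774 UMIs in female cells and 19068 in male ones (the rest: 9031 and 8951) but only 1071 and 1094 genes (the rest: 3304 and 3322). No barcode sequence was shared between the female and the male erythrocytes, while 18 were shared among all deep barcodes.

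**Figure D1:**
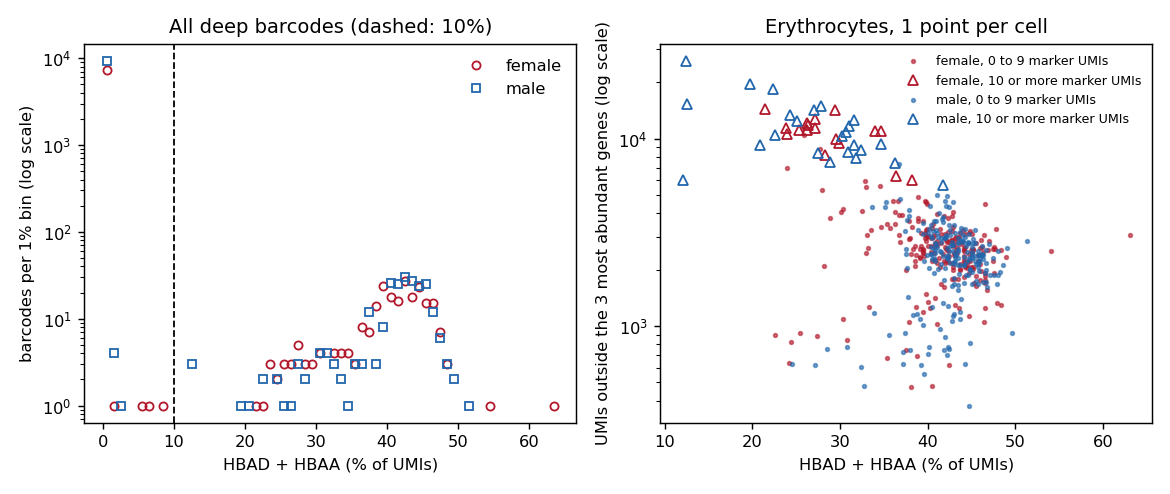
Left, number of deep barcodes (log scale) in each 1% bin of the share of HBAD plus HBAA, with the 10% rule dashed. Right, each erythrocyte by that share and by its UMIs outside the 3 most abundant genes (log scale), with triangles for the 17 female and 24 male barcodes that held 10 or more UMIs of other cell types' markers: these lie at low globin shares and high UMI counts.

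Some members also held markers of other cell types. Lists of germ cell, supporting and steroidogenic, epithelial, interstitial, endothelial, macrophage and neural markers, 54 genes in the files, were summed in each cell, and 17 female and 24 male members held between 11 and 115 of their UMIs. The cut at 10 marker UMIs was set after the data were seen, while the other members held a median of 1 and at most 9. These 41 barcodes, called mixed here, had a median of 11123 UMIs in the female library and 10332 in the male one outside the 3 most abundant genes, against 2566 and 2355 in the other members. They held 23.6% of all such UMIs in the female library and 35.2% in the male one, and 66.1% and 74.2% of the marker UMIs. By the list with most UMIs, 9 female and 9 male mixed barcodes were led by interstitial markers, 3 and 7 by supporting and steroidogenic, 5 and 2 by epithelial, and 0 and 3 by germ cell markers. No doublet caller was run here, and a cell that shared a droplet with a red cell cannot be told apart from a red cell stuck to it. Results are therefore given with all 480 members and, where they moved, with the 439 members that remained without the mixed ones (223 female, 216 male). The results on HBAP and on division within the erythrocytes use these 439 alone. In these 439 the summed markers stood at 362 (female) and 638 (male) CPM, defined further on, against 3475 and 3562 CPM in the rest, and at 3218 and 3342 CPM in barcodes of at most 100 UMIs, which hold mostly free RNA. The cut itself lowers the level in the 439.

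Globin messages made up most of the RNA. HBAD, an alpha-type chain, held 29.7% of the UMIs of female and 30.4% of those of male erythrocytes, against 0.0458 and 0.0604% in the rest. HBAA, the other adult alpha chain, held 10.8 and 10.5%, against 0.0174 and 0.0223% in the rest. The most abundant gene was ENSTGUG00000027908, which has no name in the files, at 42.0% in female and 40.7% in male erythrocytes, against 0.0797 and 0.141% in the rest. The 3 genes together took a median of 85.0% of a female and 84.9% of a male cell. In barcodes of at most 100 UMIs they took 7.001% of UMIs in the female library and 4.87% in the male one. In the rest they took 0.143% and 0.224%, and 97.6% of female and 99.2% of male cells there had at least 1 HBAD UMI. Summed over cells, the rest had 2.64 (female) and 2.71 (male) HBAD UMIs per HBAA UMI, and free RNA had 3.31 and 3.14. The sums of the rest include the 4 female and 5 male barcodes above 1%. The source of the globin UMIs in the rest was not tested.

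HBAD exceeded HBAA by a close factor in both libraries. HBAD UMIs were 2.76 times those of HBAA in female erythrocytes (95% interval 2.75 to 2.77) and 2.90 times in male ones (2.89 to 2.91). Over single cells the ratio had quartiles of 2.45 and 3.23 in the female library and 2.43 and 3.42 in the male library, so the spread between cells was wider than the gap between the libraries. ENSTGUG00000027908 had 1.04 UMIs in female and 0.996 in male erythrocytes for each UMI of the 2 alpha genes together.

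To see the other genes, HBAD, HBAA and ENSTGUG00000027908 were left out of the totals, and levels are CPM, the UMIs of a gene scaled to a common total of the remaining UMIs, summed over cells. That left 774276 UMIs for the female and 787320 for the male erythrocytes. A gene was called higher or lower where its CPM plus 5 differed from that of the rest by at least 4-fold in both libraries. Of 7102 genes with at least 20 CPM on either side, 213 were called higher (3% of those tested) and 7 lower (0.0986%). Without the mixed barcodes 263 of 7121 were higher (3.69%) and 773 lower (10.9%), and all 213 and all 7 were among them. The set of higher genes thus barely depended on the mixed barcodes and the set of lower genes did. The median log2 ratio over all tested genes was -0.69 in the female library and -0.52 in the male one. With TMM scaling (trimmed mean of M-values, in edgeR) it was -0.06 and -0.02. Ratios of single genes moved by unequal amounts under that scaling, since 5 CPM is added to each level, and 292 genes were called higher and 0 lower.

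The largest ratios after that of HBAP included genes of the red cell membrane and gas exchange. CA13, a carbonic anhydrase, which interconverts carbon dioxide and bicarbonate, stood at 9017 CPM in female and 7851 CPM in male erythrocytes, against 2.95 and 3.64 CPM in the rest. SLC4A1, the band 3 anion exchanger that trades bicarbonate for chloride, stood at 1939 CPM (female) and 1818 CPM (male), against 0.867 and 0.570 CPM in the rest. The exact Poisson 95% interval of CA13 ran from 8807 to 9231 CPM in female and from 7656 to 8049 CPM in male erythrocytes. In both of these the female and male erythrocyte levels lay close together and at least 327-fold above the rest on the CPM plus 5 scale.

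Further along the same order, RHAG, the Rh-associated glycoprotein, stood at 1113 CPM in female and 973 CPM in male erythrocytes, against 2.45 and 3.17 CPM in the rest. EPB42, the band 4.2 protein that ties band 3 to the membrane skeleton, stood at 520 CPM (female) and 431 CPM (male), against 0.271 and 0.318 CPM in the rest. AQP3, a water and glycerol channel, stood at 443 CPM (female) and 418 CPM (male), against 0.257 and 0.427 CPM in the rest. TUBB1, a beta tubulin found in the marginal band of chicken red cells, stood at 580 CPM (female) and 532 CPM (male), against 3.38 and 3.22 CPM in the rest. Each of these genes was more than 4-fold higher in both libraries. RFESD was at 298 CPM (female) and 434 CPM (male), against 0.162 and 0.285 CPM in the rest. HBAP is described later, and 6 of these 15 leading genes carry only an identifier. Among all 213 higher genes 59 had no symbol.

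**Figure D2:**
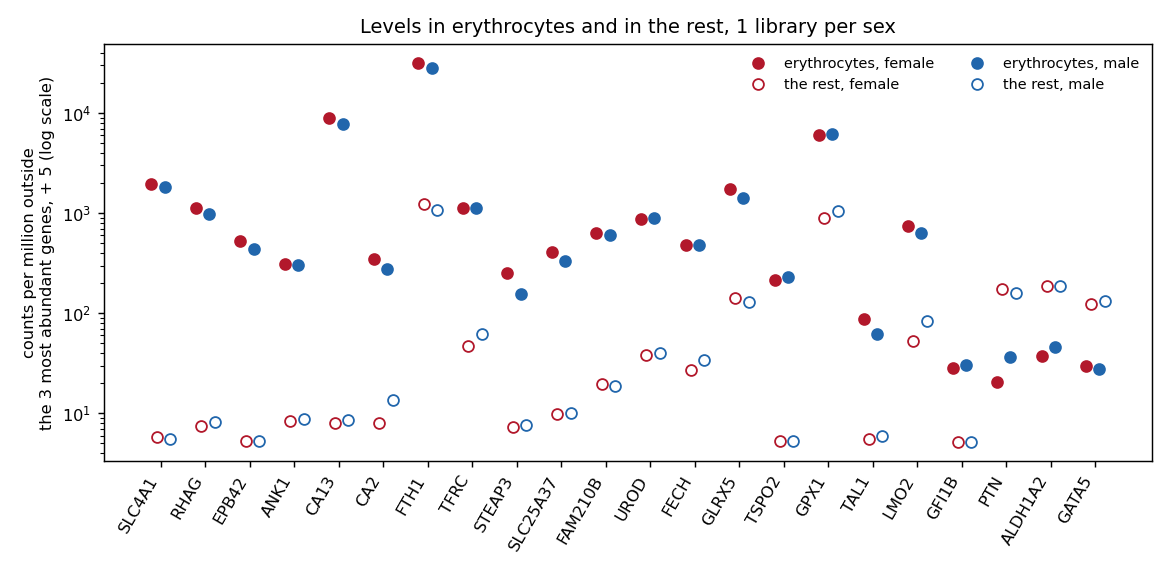
Level of genes ordered by role in erythrocytes (filled) and in the rest (open), female left of male for each gene, as CPM outside the 3 most abundant genes plus 5 on a log scale. Erythrocytes stand above the rest for every gene from SLC4A1 to GFI1B and below it for PTN, ALDH1A2 and GATA5.

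Of 14 tested genes of the membrane skeleton and transporters, 6 were higher: SLC4A1, RHAG, EPB42, EPB41, ANK1 and MPP1. EPB41, the skeleton protein 4.1, stood at 363 CPM in female and 279 CPM in male erythrocytes, against 42.7 and 38.9 CPM in the rest. ANK1, the ankyrin that anchors band 3, stood at 309 CPM (female) and 301 CPM (male), against 3.36 and 3.70 CPM in the rest. None of the 14 was lower with all members, while TPM1, AQP1 and SLC2A1 were lower without the mixed barcodes. Over all tested genes 3% were higher with all members and 10.9% lower without the mixed barcodes. SLC2A1, the glucose carrier GLUT1 of human red cells, stood at 20.7 and 31.7 CPM in all female and male members, against 66.7 and 74.7 CPM in the rest. The list median was 0.66 in the female library and 0.54 in the male one, against -0.69 and -0.52 over all genes.

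Heme synthesis genes were mostly higher. Of 17 tested genes for heme synthesis and mitochondrial transport 10 were higher and none was lower, and the list median was 2.29 in the female library and 2.38 in the male one. UROD, a decarboxylase midway in the pathway, stood at 872 CPM in female and 888 CPM in male erythrocytes, against 33.7 and 35.2 CPM in the rest. FECH, the enzyme that puts iron into heme, stood at 471 CPM (female) and 479 CPM (male), against 22.0 and 29.1 CPM in the rest. Both enzymes passed 4-fold in both libraries. SLC25A37, the mitochondrial iron importer mitoferrin-1, stood at 400.4 CPM (female) and 326 CPM (male), against 4.78 and 5.12 CPM in the rest. GLRX5, which serves iron-sulfur cluster assembly, stood at 1722 CPM (female) and 1411 CPM (male), against 138 and 123 CPM in the rest, and FAM210B, a mitochondrial protein of erythroid heme synthesis in mouse, at 637 CPM (female) and 598 CPM (male), against 14.8 and 13.6 CPM in the rest. ALAS1, the housekeeping form of the first enzyme, ran the other way at 38.7 CPM (female) and 26.7 CPM (male), against 168 and 107 CPM in the rest, and was called lower only without the mixed barcodes. The erythroid form of that enzyme, ALAS2, was matched to no symbol and is not analysed here. Over all tested genes 3% were higher with all members and 10.9% lower without the mixed barcodes.

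Iron genes were high mainly through ferritin. FTH1, the ferritin heavy chain that stores iron, stood at 31772 CPM in female and 28470 CPM in male erythrocytes, against 1237 and 1075 CPM in the rest. TFRC, the transferrin receptor that brings iron in, stood at 1128 CPM (female) and 1133 CPM (male), against 42.0 and 57.4 CPM in the rest. STEAP3, the endosomal iron reductase, stood at 249 CPM (female) and 152 CPM (male), against 2.38 and 2.66 CPM in the rest, so the female level was above the male one. NCOA4, the receptor that sends ferritin to lysosomes, stood at 912 CPM (female) and 805 CPM (male), against 77.9 and 75.1 CPM in the rest. EPAS1, an oxygen-sensing transcription factor, stood at 471 CPM (female) and 422 CPM (male), against 25.9 and 55.4 CPM in the rest, and BLVRA, biliverdin reductase, was also higher. In all, 6 of 12 tested genes of the list were higher and none was lower with all members, while HIF1A, a hypoxia factor, was lower without the mixed barcodes. The list median was 2.42 in the female library and 1.89 in the male one. Over all tested genes 3% were higher with all members and 10.9% lower without the mixed barcodes.

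Carbonic anhydrases and glycolysis split. Of 13 tested genes 4 were higher, among them CA13, CA2 and BPGM, while GAPDH, ENO1 and PKM were lower once the mixed barcodes were left out. Over all tested genes 3% were higher with all members and 10.9% lower without the mixed barcodes. CA2, a second carbonic anhydrase, stood at 347 CPM in female and 272 CPM in male erythrocytes, against 3.05 and 8.69 CPM in the rest. BPGM, which makes 2,3-bisphosphoglycerate, stood at 198 CPM (female) and 192 CPM (male), against 31.6 and 35.8 CPM in the rest. GAPDH, a core glycolytic enzyme, stood at 1042 CPM in all female and 1768 CPM in all male members, against 2994 and 3296 CPM in the rest. The list median was -0.78 in the female library and -0.54 in the male one, near the -0.69 and -0.52 of all genes.

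Among 15 tested erythroid transcription factors 5 were higher and none lower with all members, while without the mixed barcodes 6 were higher, with SOX6 added, and HIPK2 was lower. Over all tested genes 3% were higher with all members, and 3.69% were higher and 10.9% lower without the mixed barcodes. With all members the list median was 0.61 (female) and 0.81 (male), against -0.69 and -0.52 over all genes. LMO2, the adaptor of the erythroid GATA complex, stood at 734 CPM in female and 627 CPM in male erythrocytes, against 48.0 and 79.3 CPM in the rest. BACH1, a repressor that senses heme, stood at 323 CPM (female) and 326 CPM (male), against 46.3 and 37.4 CPM in the rest. TAL1, the partner of LMO2, stood at 82.7 CPM (female) and 57.2 CPM (male), against 0.582 and 0.986 CPM in the rest. This rested on 64 female UMIs (63.7 to 105.6 CPM) and 45 male ones (41.7 to 76.5 CPM). GFI1B rested on 18 and 20 UMIs and IKZF1 on 31 and 29. GATA1 and KLF1, textbook erythroid regulators, were matched to no symbol and are not analysed here. MYB, which marks early progenitors, had 1 UMI in all female and 3 UMIs in all male members.

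The remaining erythroid lists gave few genes, to be set against 3% called higher over all tested genes. GPX1, a glutathione peroxidase, was the 1 of 11 redox enzymes called higher, at 6020 CPM in female and 6136 CPM in male erythrocytes, against 900.3 and 1039 CPM in the rest. BCL2L1, the survival protein BCL-XL, was the 1 of 8 genes of erythropoietin and kit signalling, at 169 CPM (female) and 145 CPM (male), against 25.3 and 27.4 CPM in the rest. Of 12 genes of maturation, organelle removal and chromatin condensation 4 were higher, among them TSPO2, an erythroid cholesterol-binding protein, at 212 CPM (female) and 225 CPM (male), against 0.311 and 0.252 CPM in the rest. BNIP3L, a receptor for the removal of mitochondria, stood at 339.7 CPM (female) and 278 CPM (male), against 70.55 and 61.5 CPM in the rest, and CREG1 at 338 CPM (female) and 182 CPM (male), against 25.7 and 25.9 CPM in the rest. Without the mixed barcodes SOD2 among the redox enzymes and JAK2 among the signalling genes were also higher, and IGF1R of the signalling list and 1 gene of the maturation list were lower. In that setting 3.69% of all tested genes were higher and 10.9% lower. With the 3 abundant genes kept in the total, the log2 ratios of BPGM, BCL2L1 and BNIP3L turned to -0.017, -0.030 and -0.24 in the library with the smaller ratio, so their direction holds only for the RNA outside those 3 genes.

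**Figure D3:**
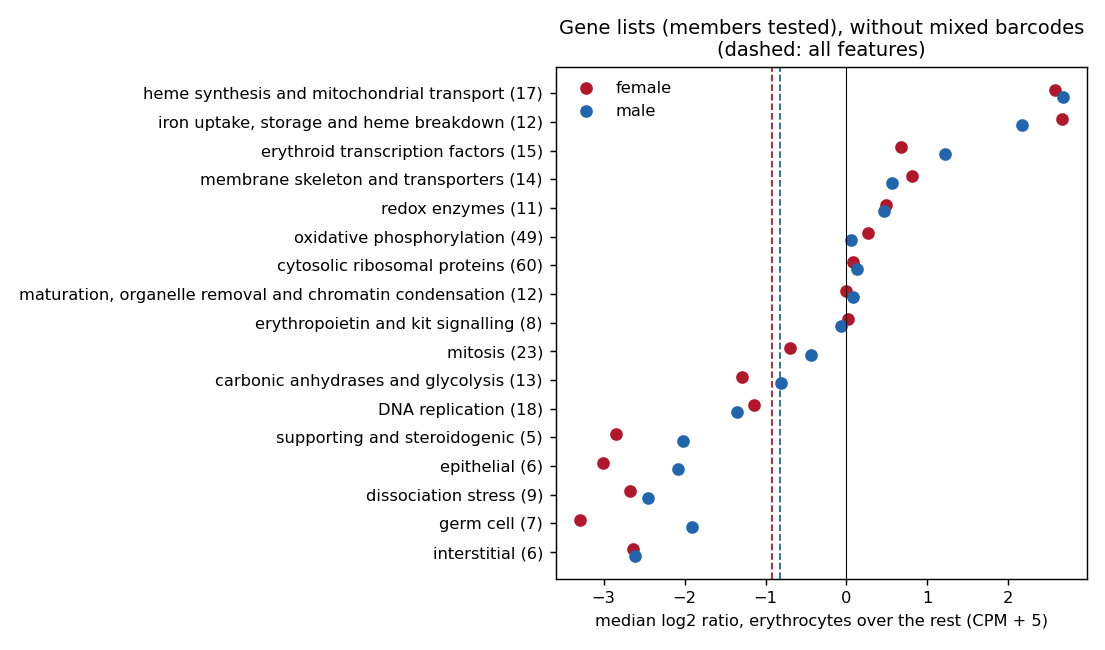
Median log2 ratio of erythrocytes over the rest for each list with at least 5 tested genes (number in brackets), without the mixed barcodes, with the medians over all tested genes dashed at -0.92 (female) and -0.82 (male). Heme and iron lists lie farthest right and the lists of other gonadal cell types and of dissociation stress farthest left. The lists of other gonadal cell types were also used to remove the mixed barcodes, which lowers their values here.

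Housekeeping lists hardly moved. The 60 tested cytosolic ribosomal proteins had a median log2 ratio of 0.06 in the female library and 0.09 in the male one with none called, and the 49 oxidative phosphorylation genes 0.23 and 0.10 with none called. Thus the machinery for protein synthesis and respiration held a share of the non-globin RNA close to that of the rest, above the median of all genes. None of 23 mitosis or 18 DNA replication genes was called with all members. Without the mixed barcodes none of the mitosis genes and 1 replication gene, POLA1, was lower. Of the globin list outside the 3 abundant genes only CYGB was tested, at 24.5 CPM in female and 34.3 CPM in male erythrocytes, against 72.6 and 96.1 CPM.

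Few genes were lower, and the 3 named ones are genes of the gonadal tissue. PTN, a growth factor, stood at 15.5 CPM in female and 31.8 CPM in male erythrocytes, against 171 and 153 CPM in the rest. ALDH1A2, which makes retinoic acid, stood at 32.3 CPM (female) and 40.6 CPM (male), against 183 and 181 CPM in the rest. GATA5, a transcription factor, stood at 24.5 CPM (female) and 22.9 CPM (male), against 118 and 128 CPM in the rest. ALCAM and TMEM47, next in order, were past 4-fold in 1 library only with all members. With all members the log2 ratio of PTN to the rest was -3.11 in the female library and -2.11 in the male one. Without the mixed barcodes it was -2.68 in the male library and lower still in the female one. PTN stood at 49.3 CPM in the female mixed barcodes and 54.0 CPM in the male ones, against 5.07 and 19.6 CPM in the other members. Without the mixed barcodes 3 of 7 germ cell, 3 of 5 supporting and steroidogenic, 3 of 6 epithelial, 4 of 6 interstitial and 1 of 2 endothelial markers were lower than in the rest and none was higher, while with all members none was called. Over all tested genes 10.9% were lower without the mixed barcodes. The mixed barcodes were cut on these same markers, so lower levels without them are in part set by that cut. None of 4 tested neural markers was called, and no macrophage marker was abundant enough to be tested.

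Markers of other blood cells summed to low levels, and of the thrombocyte markers only 1, THBS1, was abundant enough to be tested. In the 439 members without mixed barcodes the 8 thrombocyte markers in the files summed to 22.0 CPM in the female library and 33.3 CPM in the male one, against 79.6 and 80.6 CPM in the rest, with ITGA2B and GP9 at 0 UMIs in both. THBS1 alone stood at 8.45 (female) and 5.88 CPM (male) in these members, against 61.8 and 51.7 CPM in the rest. Most of the gap between the sums thus came from this gene, and the remaining thrombocyte markers were not compared on their own. The 7 macrophage markers summed to 8.45 and 9.81 CPM (5 UMIs each), against 28.8 and 32.0 CPM, with C1QA, C1QC and MARCO at 0 in both. The mixed barcodes were cut on these 7 among others, and with all members the sums were 6.46 (female) and 35.6 CPM (male). A count of 0 allows up to 3 UMIs, which is 5.07 CPM in these female cells and 5.88 CPM in the male ones. Of 9 tested dissociation stress genes 6 were lower without the mixed barcodes, FOS, JUN, EGR1, ATF3, HSPA5 and HSP90AA1, and none was called with all members. Over all tested genes 10.9% were lower without the mixed barcodes and 0.0986% with all members.

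HBAP, the embryonic alpha-type globin, varied among erythrocytes more than any of the 3 abundant genes. Summed over all members it stood at 21281 CPM (95% interval 20957 to 21608) in the female library and 5270 CPM (5111 to 5433) in the male one, against 5.93 and 3.69 CPM in the rest. Cell by cell it ran from 0 to 5.80% of all UMIs in female cells and from 0 to 2.20% in male ones, where HBAD had quartiles of 27.4 and 32.5% in female cells and of 28.7 and 33.6% in male ones. Without the mixed barcodes 61 of 223 female cells (27.4%) and 87 of 216 male cells (40.3%) had no HBAP UMI. At the other end 23 female and 8 male cells held at least 100 HBAP UMIs per 10000, and these few carried 71.8% and 55.4% of all HBAP UMIs of their library. Most HBAP RNA thus came from few cells in either library.

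To describe this range, cells with at least 10 HBAP UMIs per 10000 UMIs were called HBAP-high and cells with fewer than 2 HBAP-low, cuts set after the data were seen. HBAP-high cells made up 85 of 223 female (38.1%, 31.7 to 44.8%) and 35 of 216 male erythrocytes (16.2%, 11.6 to 21.8%), intervals that do not overlap. The values were continuous, and 30 female and 19 male cells lay within 2-fold of the upper cut, so the classes are parts of a range and not cell types. With cuts at 5 and 20 the female share was 44.8 and 31.4%. Depth was alike, with a median of 19229 UMIs in HBAP-high and 18027 in HBAP-low female cells and 16861 and 18370 in male cells. With 7 embryos pooled per library and 1 library per sex, a difference between the sexes, between pools in exact age and between dissections cannot be told apart.

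**Figure D4:**
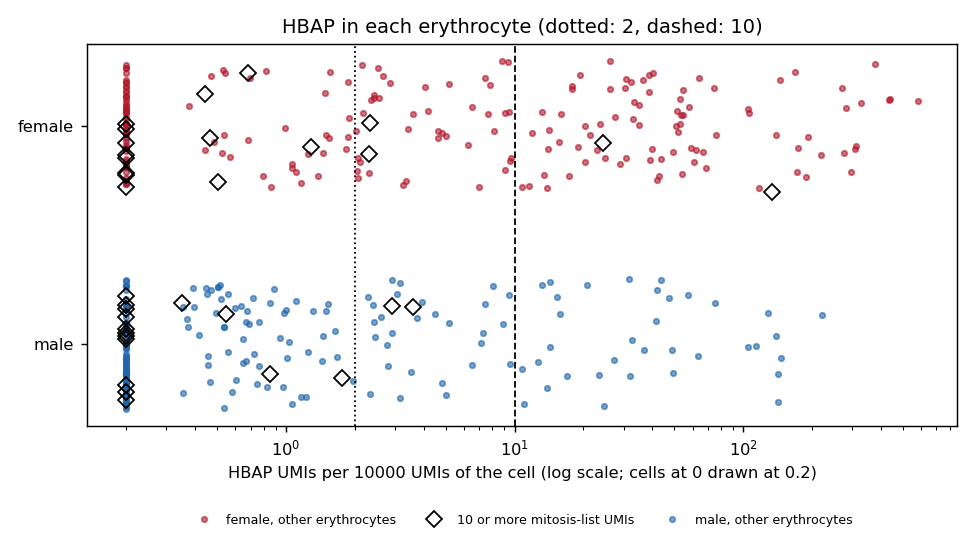
HBAP UMIs per 10000 UMIs of each erythrocyte (log scale, cells without HBAP drawn at 0.2), mixed barcodes left out, with cuts at 2 (dotted) and 10 (dashed) and diamonds for cells with 10 or more mitosis-list UMIs. Female points reach farther right than male points, and only 2 female and 0 male diamonds stand right of the dashed line.

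HBAP-high cells had less HBAD for each HBAA. The HBAD to HBAA ratio was 2.46 (2.44 to 2.47) in HBAP-high and 2.99 (2.97 to 3.01) in HBAP-low female cells, and 2.41 (2.39 to 2.43) and 3.10 (3.09 to 3.12) in male cells. Over single cells the quartiles were 2.24 and 2.65 in HBAP-high and 2.59 and 3.44 in HBAP-low female cells, while in male cells they were 2.17 and 2.61 in HBAP-high and 2.69 and 3.69 in HBAP-low ones. Cells between the cuts had 2.79 and 2.64 in the female and male library. ENSTGUG00000027908 had 1.14 UMIs per alpha UMI in HBAP-high and 0.970 in HBAP-low female cells, and 1.07 and 0.979 in male cells, with HBAP not counted among the alpha UMIs.

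Other genes differed between the classes in both libraries. A gene was called here where CPM plus 5 differed by at least 2-fold and the exact Poisson intervals did not overlap, in both libraries, with HBAP out of the totals. Of 4547 genes tested 14 were higher in HBAP-high cells (0.308%) and 27 lower (0.594%). The lower ones included 6 of 23 mitosis genes, CDK1, TOP2A, TPX2, BIRC5, SMC2 and MKI67 (ENSTGUG00000021193), with medians over that list of -2.21 in the female library and -1.64 in the male one against -0.17 and -0.12 over all genes. SPC25, a kinetochore gene, had 1 UMI in HBAP-high and 42 UMIs in HBAP-low female cells, and 0 and 43 UMIs in male cells, at least 3.17-fold lower by a floor of 3 UMIs in the male library. Most UMIs of the mitosis list came from a small set of cells, described next, and when that set was left out 9 of 4593 genes were higher (0.196%) and 4 lower (0.0871%).

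The genes that kept their call without dividing cells were 8 of the 14 and all 4 of the later lower ones. RAB7B, a small GTPase of the endosome and lysosome, stood at 122 CPM in HBAP-high cells and had no UMI in HBAP-low female cells (at least 10.4-fold higher by the floor), and stood at 149 and 5.49 CPM in male cells (12 and 2 UMIs). CCNG1, a target of p53, stood at 126 CPM in HBAP-high and 7.82 CPM in HBAP-low female cells, and 248 CPM in HBAP-high and 43.9 CPM in HBAP-low male cells. BHLHE40, a circadian and stress repressor, stood at 74.9 CPM in HBAP-high and 3.91 CPM in HBAP-low female cells, and 86.8 CPM in HBAP-high and 5.49 CPM in HBAP-low male cells. The BHLHE40 levels rest on few UMIs. In these classes 3 UMIs are 14.0 CPM in HBAP-high and 11.7 CPM in HBAP-low female cells, and 37.2 and 8.23 CPM in male ones. In these 3 genes both libraries had the higher level in the HBAP-high cells. SAT1, which acetylates polyamines, stood at 356 CPM in HBAP-high and 93.8 CPM in HBAP-low female cells, and 422 CPM in HBAP-high and 104 CPM in HBAP-low male cells. SQSTM1, the autophagy receptor p62, stood at 393 CPM in HBAP-high and 113 CPM in HBAP-low female cells, and 359.6 CPM in HBAP-high and 107 CPM in HBAP-low male cells, and LDHA, lactate dehydrogenase A, at 515 CPM in HBAP-high and 164 CPM in HBAP-low female cells, and 409 CPM in HBAP-high and 121 CPM in HBAP-low male cells. Among the heme genes only SLC25A37 was called, lower at 318 CPM in HBAP-high and 676 CPM in HBAP-low female cells, and 211 CPM in HBAP-high and 529 CPM in HBAP-low male cells. Markers of other cell types stood at 318 CPM in HBAP-high and 395 CPM in HBAP-low female cells, and 594 CPM in HBAP-high and 645 CPM in HBAP-low male cells. Both classes had been cut to fewer than 10 such UMIs a cell, so these levels cannot show whether HBAP-high cells were mixed.

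A small set of erythrocytes was dividing by its RNA. Cells with at least 10 UMIs of the mitosis list, a cut set after the data were seen, numbered 17 of 223 in the female (7.62%, 4.503 to 11.9%) and 17 of 216 in the male library (7.87%, 4.65 to 12.3%). They carried 79.4% and 72.6% of all mitosis-list UMIs, with medians of 32 and 34 UMIs a cell, against 1 and 1 in the others. Another 4 female and 10 male cells held 5 to 9 UMIs, and 5 and 6 of the dividing ones fewer than 20. The class is again a range: with cells from 5 UMIs on, 12.5% of male cells passed. Their total depth was close to that of the others, at medians of 17226 UMIs in dividing and 18488 UMIs in other female cells, and 18370 UMIs in dividing and 18320 UMIs in other male cells. More of it lay outside the 3 abundant genes, at 3755 UMIs in dividing and 2538 UMIs in other female cells, and 3627 UMIs in dividing and 2325 UMIs in other male cells. The cut counts UMIs within this RNA, so cells with more of it pass more easily. This difference is therefore in part set by the cut. The summed markers of other cell types stood at 237 CPM in dividing and 379 CPM in other female cells, and 490.3 CPM in dividing and 658 CPM in other male cells. Both classes had been cut to fewer than 10 marker UMIs a cell, so these levels cannot show whether dividing cells were mixed. Of the dividing cells 4 female and 2 male ones held over 5000 UMIs outside the 3 genes, as all mixed barcodes did.

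The dividing cells differed from the others in their summed globin counts. HBAD and HBAA together held a median of 37.98% in dividing and 42.3% in other female cells, and 40.8 and 43.0% in male cells. The cut on mitosis-list UMIs favours cells with more RNA outside the 3 genes, so it in part sets these lower shares. HBAD was 3.65 times HBAA (3.59 to 3.70) in dividing and 2.69 times (2.68 to 2.70) in other female cells, and 3.78 times (3.72 to 3.83) and 2.86 times (2.85 to 2.87) in male cells. These ratios are of UMIs summed over cells, 17 dividing ones in each library, and their intervals leave out the spread between cells. HBAP-low cells as a class, dividing ones included, had 2.99 (female) and 3.10 (male). HBAP stood at 3882 CPM in dividing and 30506 CPM in other female cells, and 249 CPM in dividing and 8586 CPM in other male cells. The female dividing value came mostly from 1 cell of 18020 UMIs, at 134 HBAP UMIs per 10000. Of the dividing cells 13 of 17 in the female library and 15 of 17 in the male one were HBAP-low, against 40.3% and 68.3% of the others, and 2 and 0 were HBAP-high. By class, 2 of 85 HBAP-high and 13 of 96 HBAP-low female cells were dividing.

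**Figure D5:**
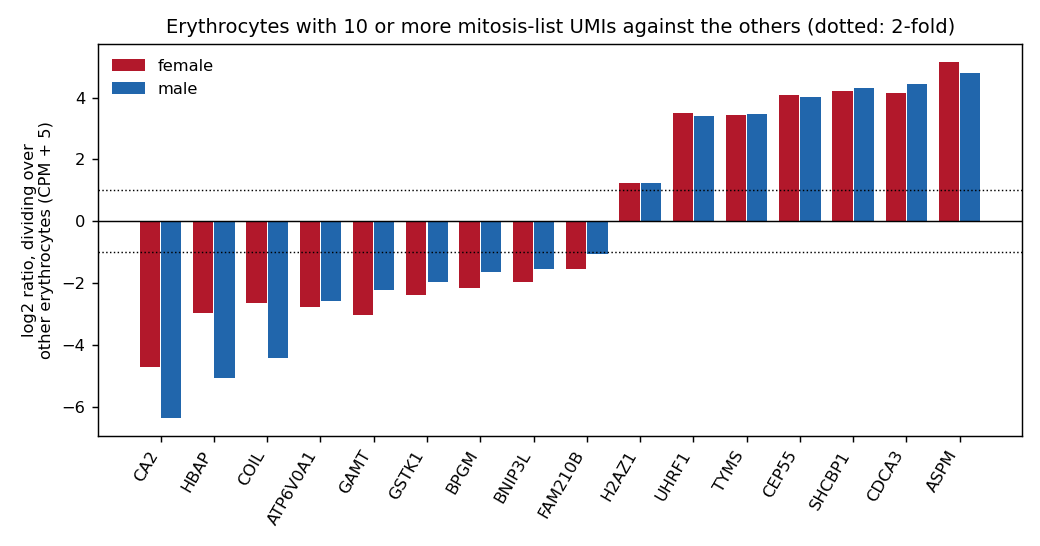
Log2 ratio of dividing over other erythrocytes (CPM plus 5, mitosis-list genes out of the totals) in the female (left bar) and male (right bar) library for genes called in both, with 2-fold dotted. Bars reach below 0 from CA2 to FAM210B and above 0 from H2AZ1 to ASPM in both libraries.

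With the mitosis list itself left out, 122 of 4668 genes were higher in dividing cells (2.61%) and 40 lower (0.857%), by the rule of 2-fold and separate intervals in both libraries. Counts were summed over cells, so deep cells weigh most. The 4 deepest female dividing cells held 10485, 8761, 6940 and 5501 of the 71856 UMIs of their class outside the 3 abundant genes. Those with the largest ratios included ASPM, a spindle pole protein, at 380 CPM in dividing and 5.77 CPM in other female cells, and 563 CPM in dividing and 15.6 CPM in other male cells, and CDCA3, a mitotic entry factor, at 829.9 CPM in dividing and 42.3 CPM in other female cells, and 779 CPM in dividing and 31.2 CPM in other male cells. SGO1, which guards sister chromatid cohesion, stood at 281 CPM in dividing and 3.85 CPM in other female cells, and 199 CPM in dividing and 6.69 CPM in other male cells. Of 15 tested DNA replication genes 7 were higher, among them TYMS, thymidylate synthase, at 197 CPM in dividing and 13.5 CPM in other female cells, and 199 CPM in dividing and 13.4 CPM in other male cells.

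The genes lower in dividing cells included some of gas exchange and glycolysis, while few genes of the other erythroid lists were called. Of 11 tested maturation genes BNIP3L was lower and HMGB2, a chromatin protein, higher, and of 11 membrane genes none was lower and ADD3, an adducin of the membrane skeleton, was higher. CA2 had 1 UMI in dividing and 259 in other female cells, and 0 and 182 in male cells, at least 8.17-fold lower by the floor in the male library. BPGM stood at 56.3 CPM in dividing and 267 CPM in other female cells, and 82.9 CPM in dividing and 272 CPM in other male cells. In all, 3 of 11 tested genes of carbonic anhydrases and glycolysis were lower and none higher. The median of that list was -1.33 (female) and -1.01 (male), against 0.05 and -0.04 over all genes. BNIP3L stood at 113 CPM in dividing and 456 CPM in other female cells, and 133 CPM in dividing and 393 CPM in other male cells, and FAM210B at 295 CPM in dividing and 870 CPM in other female cells, and 414 CPM in dividing and 879 CPM in other male cells. Each of these genes was lower in the dividing cells of both libraries. GAMT, which makes creatine, stood at 42.2 CPM in dividing and 385 CPM in other female cells, and 66.3 CPM in dividing and 330 CPM in other male cells. The V-ATPase gene ATP6V0A1 stood at 42.2 CPM in dividing and 316 CPM in other female cells, and 33.1 CPM in dividing and 225 CPM in other male cells. FAM210B was the only one of 15 heme genes and EPAS1 the only one of 10 iron genes called, while the medians of these lists were -0.11 and -0.70 in the female library and -0.10 and -0.13 in the male one. GSTK1, a glutathione transferase, stood at 366 CPM in dividing and 1922 CPM in other female cells, and 365 CPM in dividing and 1432 CPM in other male cells.

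Each library was also cut into terciles of its own share of HBAD and HBAA, the value that chose the members. That share is of all UMIs, so cells with more HBAP or more other RNA tend to lower terciles by definition. The tercile differences below are a description only. With all members, 165 of 5630 genes were higher (2.93%) and 1004 lower (17.8%) in the upper than in the lower tercile by 2-fold in both libraries, but 17 of 17 female and 23 of 24 male mixed barcodes lay in the lower tercile. Without them 69 of 4608 genes were higher (1.5%) and 160 lower (3.47%), of which 6 and 38 also had separate intervals in both libraries. Of the 160 lower genes 63 were among the 122 that were higher in dividing cells, which lay in the lower and middle terciles of the same libraries. The lower ones included 20 of 23 mitosis and 9 of 14 DNA replication genes. TOP2A, which untangles DNA in dividing cells, stood at 5.79 CPM in the upper and 223 CPM in the lower tercile of female cells, and at 25.1 and 332 CPM in those of male cells. HBAP stood at 5707 CPM in the upper tercile and 48698 CPM in the lower tercile of female cells, and 4341 CPM and 12312 CPM in those of male cells. With the dividing cells also left out, 74 of 4656 genes were higher (1.59%) and 93 lower (2%), and 2 of 11 tested mitosis and 5 of 12 DNA replication genes were still lower, the replication genes being MCM3, RRM2, TYMS, GINS1 and SLBP.

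In the upper tercile GADD45G, a gene of growth arrest, stood at 203 CPM against 70.0 CPM in the lower tercile of female cells, and at 345 and 143 CPM in male cells. SESN2, a stress-induced inhibitor of growth signalling, stood at 411 CPM in the upper tercile and 188 CPM in the lower tercile of female cells, and 339 CPM and 91.7 CPM in those of male cells. KLHDC2 stood at 110 CPM in the upper tercile and 21.9 CPM in the lower tercile of female cells, and 113 CPM and 40.1 CPM in those of male cells, with intervals that overlapped in at least 1 library. Depth moved with the terciles: cells with under 10000 UMIs numbered 3 in the upper and 20 in the lower tercile of female and 4 and 24 of male cells. With every cell thinned to 1000 UMIs outside the 3 genes, all members gave 205 higher and 393 lower genes by fold alone, against 165 and 1004 unthinned. After the same thinning of the members without mixed barcodes, the share of cells with at least 2 mitosis-list UMIs was 5.41% in the upper and 29.2% in the lower tercile of female cells (exact 95% intervals 1.49 to 13.3% and 18.6 to 41.8%), and 13.2 and 37.5% in male cells (6.23 to 23.6% and 24.9 to 51.5%). Unthinned shares were 14.9% in the upper tercile and 46.7% in the lower tercile of female cells, and 38.9% and 55.6% in those of male cells. Thinning left out 0 upper and 10 lower female and 4 upper and 16 lower male cells.

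Female and male erythrocytes were compared with 1 library each, so a sex difference cannot be told apart from a difference between libraries. In the rest the labels held, with DMRT1, which is needed for testis development in chicken, at 43.2 CPM in female cells and 151 CPM in male ones, and CYP19A1, the aromatase of the ovary, at 8.03 and 0.471 CPM. With all members 28 of 6100 genes were past 2-fold with separate intervals on the female side (0.459%) and 321 on the male side (5.26%). Without mixed barcodes 24 of 5129 were on the female side (0.468%) and 112 on the male side (2.18%), of which 12 and 70 were called with all members too. The male genes lost included germ cell and supporting cell markers: 6 of 6 tested germ cell markers were on the male side with all members and 1 of 2 without mixed barcodes. SOX9, a Sertoli cell factor, stood at 3.87 CPM in all female and 77.5 CPM in all male members, against 49.4 and 134.7 CPM in the rest.

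HBAP led the female side by level, at 27257 CPM in female and 7580 CPM in male erythrocytes without the mixed barcodes (log2 ratio 1.85, and 0.33 in the rest). SLC4A4, a bicarbonate cotransporter, stood at 125 CPM (female) and 53.0 CPM (male), against 17.5 and 19.0 CPM in the rest. MRPS36 stood at 59.1 CPM (female) and 7.85 CPM (male), against 20.9 and 10.9 CPM in the rest. On the male side TXN, thioredoxin, stood at 759 CPM in female and 1542 CPM in male erythrocytes, and at 350.1 and 707 CPM in the rest, and CKS2, a cell cycle kinase subunit, at 132 and 349 CPM, and at 234 and 481 CPM in the rest. For both genes the male level was above the female one in both sets of cells. Over all 112 male-side genes 89 were also higher on the male side in the rest, with a median log2 ratio of -0.25 there against -0.01 over all tested genes, and 13 of them passed 2-fold. Of the 24 female-side genes 13 were on the female side in the rest. From the markers of other cell types, free RNA was estimated at up to 7.88% of the UMIs outside the 3 genes in female and 37.0% in male erythrocytes, mixed barcodes included. Each value is the lowest given by any of the germ cell, supporting and steroidogenic, epithelial, interstitial and endothelial lists, so it rests on a single list per library. Germ cell markers summed to 34.9 CPM in all female and 399 CPM in all male members (the rest: 545 and 664 CPM). Interstitial markers summed to 305 and 470 CPM (the rest: 1093 and 1235 CPM). The mixed barcodes held 66.1% (female) and 74.2% (male) of the marker UMIs. Without them the summed markers stood at 362 CPM in female and 638 CPM in male erythrocytes, and the 112 male-side genes were called in that setting. The estimate was not made without mixed barcodes, and the part of free RNA in the male-side genes was not tested. CALB1, a calcium-binding protein, stood at 1.69 CPM in female and 64.7 CPM in male erythrocytes, and at 14.0 and 229 CPM in the rest.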

How the data were processed

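The deposited matrix holds raw UMI counts per gene and barcode, which the authors made with Cell Ranger 5.0.0 against the genome build bTaeGut1_v1; 9155 of 20511 genes carry only an identifier. It pools a female and a male library, told apart by the barcode suffix (1 male, 2 female, a mapping the labels do not state). The libraries hold 98701138 (female) and 124217899 (male) UMIs. Deep barcodes have at least 2000 UMIs and 200 genes. Counts were summed per library and class, divided by the total outside HBAD, HBAA and ENSTGUG00000027908, and compared as log2 of CPM plus 5, with exact Poisson and binomial 95% intervals. With 1 library per sex no count model was fitted, and no test was run. Named genes are the 15 highest and 5 lowest against the rest with at least 100 CPM, up to 4 called genes of each list by level, and the leading called genes between classes; others were named after their values were seen. The members, lists and cuts were chosen with earlier results of these data known. The mixed, HBAP and dividing classes, and their alternatives, were added after seeing the data. Scripts were tested on simulated data (Python 3.11.15, numpy 2.4.6, scipy 1.17.1, pandas 2.3.3, R 4.3.3, edgeR 4.0.16 for TMM factors only). Alternatives covered cell rules, scaling, filters, free RNA, mixed barcodes and each library. Some genes that met the naming rule are not reported here.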

Additional observations from a re-analysis of the deposited data

How the results depend on the processing

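No paired analysis was possible because each sex has 1 library. The count of 213 higher genes stayed within 1.5 times of itself except in 2 settings: with the 3 abundant genes left in the total 34 genes were higher and 4770 lower, and the 2-fold rule gave 437 higher and 1248 lower genes. The count of 7 lower genes was the unstable one: 3 and 14 with a globin share of 5% and 20%, 0 with TMM factors, 58 with 1 CPM added, 416 with free RNA subtracted (7.88% of the female and 37.0% of the male UMIs outside the 3 genes), 102 without the upper 5% by other types' markers, 773 without mixed barcodes, and 44 to 319 with 1 library left out. Of 615 values for 41 named genes under 15 alternatives 578 kept their call, 19 lost it, 15 gained one, and 3 (BPGM -0.017, BCL2L1 -0.030, BNIP3L -0.24, all with the 3 genes in the total) changed sign. The 2-fold rule, no minimum CPM, 1 CPM added and either library left out could not remove a call, so calls kept there say nothing on stability. The HBAD to HBAA ratio moved beyond its counting interval to 2.73 (female) and 2.92 (male) without mixed barcodes and 2.91 (male) from 5000 UMIs. Between the sexes, genes higher in male numbered 207 with a globin share of 20%, 199 with TMM (51 higher in female) and 112 without mixed barcodes. Between terciles, higher and lower genes numbered 315 higher with TMM; 1741 lower with no minimum CPM; 87 and 653 without the upper 5%; 69 and 160 without mixed barcodes; 74 and 93 without mixed or dividing ones; 393 lower after thinning (291 cells kept, 29 left out); 100 and 294 with separate intervals; and 474 to 525 higher and 1743 to 2158 lower with 1 library left out. HBAP-high against HBAP-low gave 49 and 229 by fold alone, 9 and 4 without dividing cells, and 47 to 50 and 66 to 136 with 1 library left out. Dividing against other cells gave 370 and 238 by fold alone, 202 and 75 with all members, and 253 to 330 and 85 to 118 with 1 library left out. The HBAP-high share in the female library was 44.8% and 31.4% with cuts at 5 and 20, and the dividing share in the male library 12.5% from 5 UMIs. The mixed-barcode, HBAP and dividing settings were chosen after seeing the data, and the cause of the shifts was not tested.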
